A study of Mus musculus with 2 samples.

Results

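The mRNAs of translation initiation and elongation factors were compared between RNA of a synaptosome-enriched fraction and RNA of total homogenate, both from whole brain of wild-type C57BL/6 mice. The members were all genes whose symbol begins with Eif or Eef and a digit, which gave 66 of the 23329 gene symbols and 95 of the 30383 transcripts in the files. Of these, 65 averaged 1 CPM or more and were compared, CPM being the count divided by the library total on a common scale. Eif4e1b, a form of the cap-binding protein eIF4E, had 0 counts in the synaptosome library and 3 in the homogenate library and was not. Synaptosomes are nerve endings that reseal when brain is homogenised, often with postsynaptic membrane attached. Nuclei were first spun out, and the layer between 3% and 10% Percoll was then collected. There was 1 library of each kind, and the labels used here give no age, sex or number of brains.

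Initiation factors bring the small ribosomal subunit and the initiator tRNA to the start codon of an mRNA, and elongation factors carry aminoacyl-tRNA to the ribosome and move it along the coding sequence. eIF2 delivers the initiator tRNA, eIF3 is the scaffold on the small subunit, and the eIF4 proteins bind the mRNA cap and unwind its leader. In neurons, both steps are regulated through kinases that act on eIF2, on the eIF4E-binding proteins and on eEF2, and translation in dendrites near synapses has been linked to synaptic plasticity. Many mRNAs of elongation factors and of some initiation factors begin with a 5′ terminal oligopyrimidine tract, a run of C and T bases that places their translation under the control of mTOR.

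Summed over genes, the libraries held 13709528 estimated counts for the synaptosome fraction and 15210838 for the homogenate. Ratios are synaptosome over homogenate after TMM scaling, which sets the typical gene near 0, and the median log2 ratio of all 14153 genes kept was -0.013. With no replicate, each ratio compares these 2 libraries, its 95% interval covers counting error only, and no p-value is given. Calls of higher or lower needed a difference of 2-fold or more and an interval free of 0. In bulk RNA, fewer cells or fragments of a type and less RNA of a gene in each of them cannot be told apart. Of the marker lists, 5 of 8 synapse genes were higher and 1, Snap25, was lower, while all 5 nuclear noncoding RNAs were lower. Summed counts of 8 astrocyte markers were 2.22% of the synaptosome library and 0.782% of the homogenate library, a 4.00-fold ratio, and 6 of the 8 were called higher. Among the others, 2 of 6 oligodendrocyte and 3 of 6 microglial markers were higher, and 5 of 6 endothelial markers were lower. For comparison, 12.8% of all genes kept were called higher and 9.10% lower. Among genes that averaged 100 CPM or more, these shares were 27.3% and 4.12%. No marker was at 0 counts in either library. The part of these other cells in the ratios below was not tested.

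Translation factors did not move as a block. Elongation factor mRNA was 2.05-fold higher in the synaptosome fraction in sum. Initiation factor mRNA in sum was at 1.00-fold (0.995 to 1.01), with single genes on both sides. The initiation sum includes the eIF4E-binding proteins and the kinases that act on eIF2. The elongation sum includes Eef2k and Eef1e1, described below. Counts summed over all genes kept were themselves at 1.41-fold under this scaling. As shares of library totals, elongation factors were 0.669% in the synaptosome library and 0.459% in the homogenate library. Initiation factors were 0.490% in the synaptosome library and 0.686% in the homogenate library. Of the 65 members, 4 were called higher (6.15%), against 12.8% of all genes kept, and 3 were called lower (4.62%), against 9.10% of all genes. The 4 were Eef1a1 and Eef2, the core elongation factors, and Eif4ebp2 and Eif4ebp1, repressors of cap-dependent initiation. The 3 were Eif2s3y, the Y-linked gene for the γ subunit of eIF2, Eif4ebp3, and Eif1a, a scanning factor. Both shares lay below the background, so large differences were not more frequent among translation factors than among genes in general. The median log2 ratio of the members was -0.093, with 29 above 0 and 36 below, and the range ran from -1.55 to 1.47. The interval lay wholly above 0 for 26 members and wholly below 0 for 27. Of all 14153 genes kept, 6974 were above 0 and 7179 below. Their intervals lay wholly above 0 for 5200 and wholly below 0 for 5087. These directions are relative to the typical gene. Under scaling to library totals, where the median of all genes was -0.51, none of the 4 passed 2-fold, at log2 ratios of 0.98 for Eif4ebp2, 0.78 for Eef1a1, 0.69 for Eef2 and 0.55 for Eif4ebp1, while the 3 lower members stayed lower. Of the 65 members, 49 kept their sign under that scaling, and the others, Eif1ax, Eif2s3x, Eif2b5, Eif2ak3, Eif3a, Eif3b, Eif3c, Eif3i, Eif3j, Eif4b, Eif4h, Eif4g1, Eif5, Eif5a, Eif6 and Eif2c1, were then below 0. TPM put Eif3k and Eif4g2 below 0 as well. At 1.5-fold in place of 2-fold, 10 members were higher (15.4%), against 24.0% of all genes, and 9 were lower (13.8%), against 20.9%. Among genes that averaged 100 CPM or more, 2 of 21 members were at least 2-fold higher (9.52%), against 27.3% of 2258 genes, and 0 were lower, against 4.12%. In that range the 1.5-fold counts were 6 higher (28.6%), against 43.8%, and 2 lower (9.52%), against 11.8%.

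**Figure D1:**
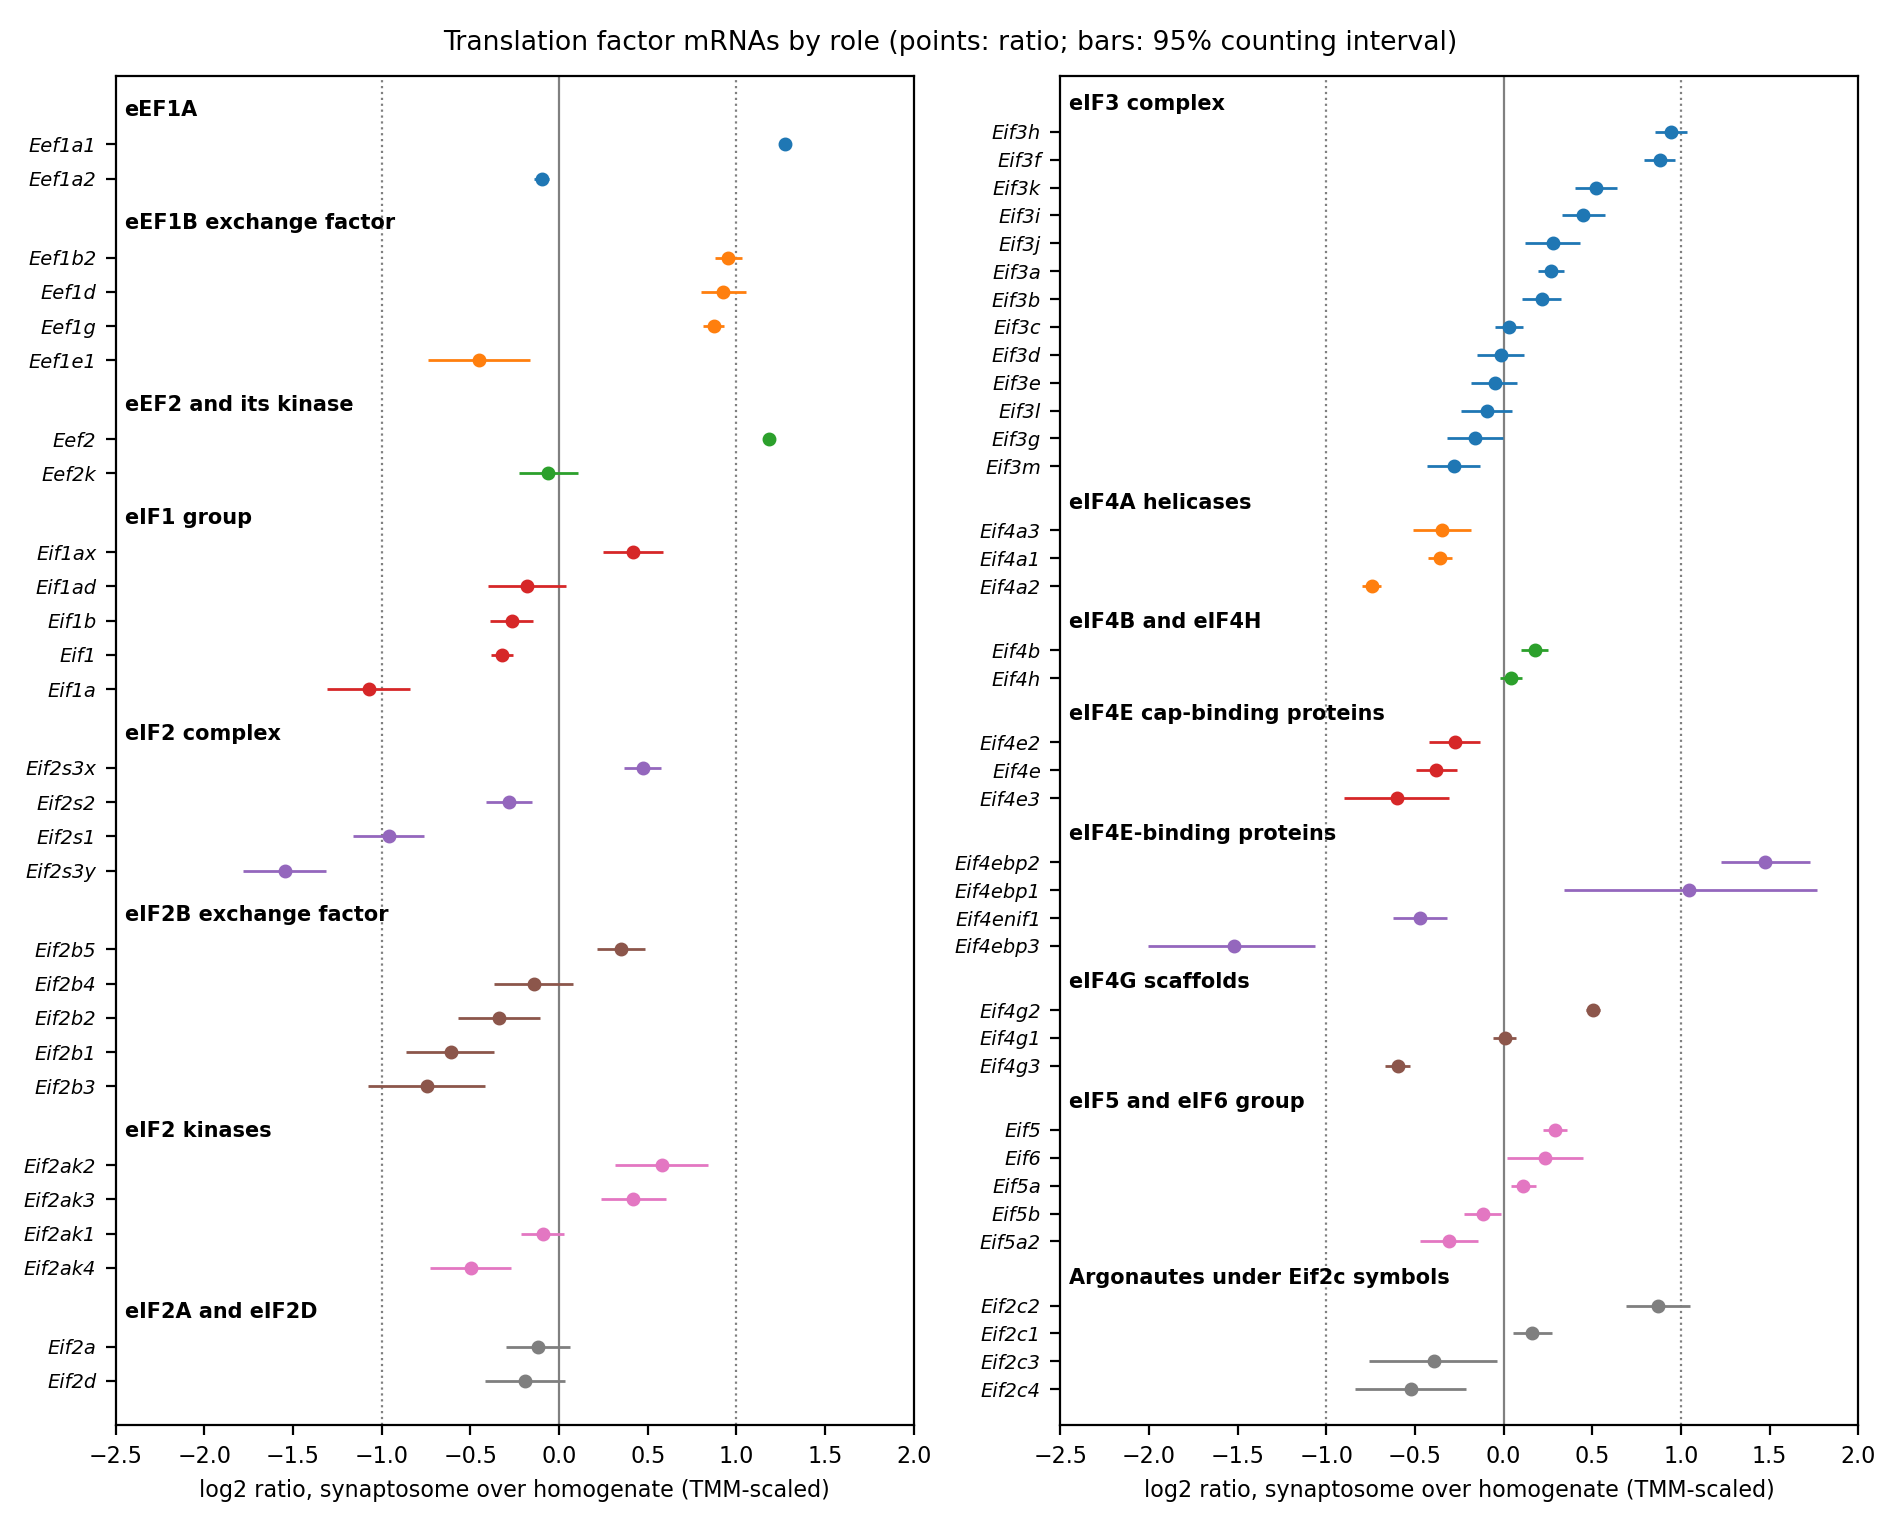
Log2 ratio of each translation factor mRNA, synaptosome over homogenate, grouped by role. Points are ratios of 1 library to 1 library, bars are 95% counting intervals, and dotted lines mark 2-fold. Eef1a1, Eef2, Eif4ebp2 and Eif4ebp1 lie beyond the right line and Eif2s3y, Eif4ebp3 and Eif1a beyond the left one.

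The whole set took the same share of each library, 1.17% of all counts in the synaptosome library and 1.16% in the homogenate library, but its makeup differed. Elongation factors held 57.1% of the members' counts in the synaptosome library and 39.5% in the homogenate library. The eIF4 group held 19.2% and 29.0%, and eIF3 held 10.2% and 11.7%, in the synaptosome and the homogenate library. For each count of an initiation factor there were 1.37 counts of elongation factors in the synaptosome library and 0.670 in the homogenate library, a 2.04-fold difference. That ratio is taken within a library and does not depend on scaling.

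**Figure D2:**
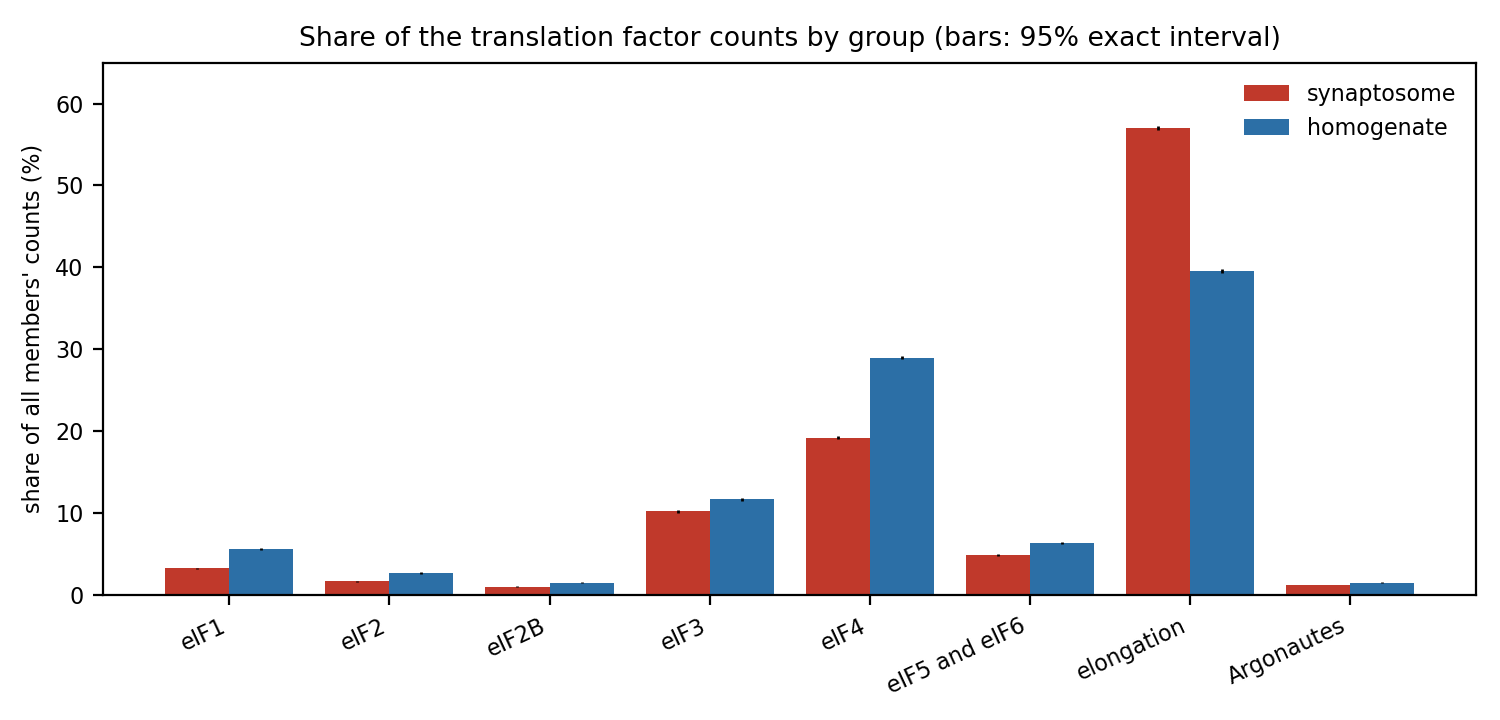
Share of all translation factor counts (percent) held by each group in the synaptosome library (left bars) and the homogenate library (right bars), with 95% exact intervals. The elongation factors are the one tall pair in which the synaptosome bar is higher, at 57.1% against 39.5%.

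Among the elongation factors, the highest ratios were in the proteins that do the core steps. Eef1a1, the widely expressed form of eEF1A, which delivers aminoacyl-tRNA, stood at 4676 TMM-scaled CPM in the synaptosome library and 1930 in the homogenate library, 2.42-fold higher (2.39 to 2.46). It was the most abundant member per length, at 5358 TPM in the synaptosome library and 3212 TPM in the homogenate library. Eef2, the factor that moves the ribosome by a codon, stood at 1790 scaled CPM in the synaptosome library and 788 in the homogenate library, 2.27-fold higher (2.22 to 2.32). Eef1a2, the eEF1A of neurons and muscle, did not share the difference of Eef1a1. It stood at 626 scaled CPM in the synaptosome library and 670 in the homogenate library, a log2 ratio of -0.098.

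The subunits of eEF1B, which exchange GDP for GTP on eEF1A, had ratios close to one another and just under the 2-fold rule. Eef1b2, the β subunit, had 267 scaled CPM in the synaptosome library and 138 in the homogenate library, 1.94-fold (1.84 to 2.04). Eef1d, the δ subunit, was at 1.90-fold (1.74 to 2.08) and Eef1g, the γ subunit, at 1.83-fold (1.76 to 1.91). All 3 intervals lay above 0. Eef1e1, which carries an elongation factor symbol but is an auxiliary protein of the tRNA synthetase complex, was on the other side at a log2 ratio of -0.45. Eef2k, the calcium-dependent kinase that inhibits eEF2, had 41.9 scaled CPM in the synaptosome library and 43.7 in the homogenate library, and its interval held 0.

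The elongation factor sum was carried by its most abundant genes. The log2 ratio of the summed counts was 1.04 (1.02 to 1.05), with 2 of 8 members called higher and 0 lower, where 12.8% of all genes, and 27.3% of those that averaged 100 CPM or more, were called higher and 9.10% of all genes lower. It was 0.75 without Eef1a1 and 0.35 without both Eef1a1 and Eef2. Of the 100-base windows of Eef1a1 transcripts, 26.7% also occur in another annotated gene, mostly processed pseudogenes, and 49.4% do in Eef1g, so the counts of both are uncertain.

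Promoter sequence was examined for the members that moved with or against their relatives. The RefSeq promoter table (build GRCm38.p6) matched 52 of the 66 members by transcript. A pyrimidine tract, C followed by at least 7 further C or T bases, was searched for on the gene's strand. The search ran from 20 bases before to 50 bases after the annotated start, in every window of a gene. Such a tract need not begin the mRNA, so the search does not pick out 5′ terminal tracts. A match in any window was found in 15 of the 52 members (28.8%) and in 22.7% of 27025 genes in the table. The median log2 ratio was -0.060 for the 15 members with a match and -0.14 for the 37 without. Whether a tract at the first bases of the mRNA went with the ratio was not tested. TATAAA on the gene's strand, anywhere from 250 bases before to 50 after the start, was found in 4 members, or 7.69%, and in 9.77% of genes. The 4 lay on both sides, at log2 ratios of 1.18 (Eef2), 0.88 (Eif3f), 0.21 (Eif3b) and -0.96 (Eif2s1). Matching letters are a description of these windows only. The following lines give 100 bases of each of 6 promoters, 70 before and 30 from the start, with the pyrimidine tract or TATAAA in capitals, chosen as pairs that differ in ratio (Eef1a1 and Eef1a2, Eif2s3x and Eif2s3y) or as high members with TATAAA (Eef2 and Eif3f).
Eef1a1, log2 1.28, chr9:78481695-78481794, minus strand: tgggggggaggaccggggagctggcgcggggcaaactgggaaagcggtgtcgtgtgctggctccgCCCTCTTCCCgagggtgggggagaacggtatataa
Eef1a2, log2 -0.098, chr2:181156986-181157085, minus strand: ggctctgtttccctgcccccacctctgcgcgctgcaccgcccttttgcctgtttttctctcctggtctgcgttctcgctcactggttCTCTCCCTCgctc
Eef2, log2 1.18, chr10:81176561-81176660, plus strand: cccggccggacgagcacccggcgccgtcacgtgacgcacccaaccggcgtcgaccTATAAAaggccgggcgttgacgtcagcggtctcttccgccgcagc
Eif3f, log2 0.88, chr7:108934345-108934444, plus strand: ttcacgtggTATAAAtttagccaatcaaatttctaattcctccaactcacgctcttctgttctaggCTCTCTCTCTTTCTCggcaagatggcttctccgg
Eif2s3x, log2 0.47, chrX:94212622-94212721, minus strand: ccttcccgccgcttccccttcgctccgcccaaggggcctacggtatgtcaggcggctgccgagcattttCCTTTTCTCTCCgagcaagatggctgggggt
Eif2s3y, log2 -1.55, chrY:1010525-1010624, plus strand: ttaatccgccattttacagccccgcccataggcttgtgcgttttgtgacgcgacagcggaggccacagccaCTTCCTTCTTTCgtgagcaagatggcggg
Both genes of each pair hold a match to this rule. Relative to the annotated start, it begins at -5 in Eef1a1, 17 in Eef1a2, -1 in Eif2s3x and 1 in Eif2s3y.

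The factors that select the start codon were mostly below 0. Eif1, which keeps scanning ribosomes from starting at a wrong codon, had 295 scaled CPM in the synaptosome library and 368 in the homogenate library, a log2 ratio of -0.32. Its close relative Eif1b was at -0.27. Eif1a, which works with Eif1 on the scanning subunit, was called lower, at 17.1 scaled CPM in the synaptosome library and 36.0 in the homogenate library, 2.10-fold lower (1.79 to 2.47). The X-linked Eif1ax, which encodes a closely related protein, was at a log2 ratio of 0.42 (0.25 to 0.59). The X-linked gene therefore held 72.5% of the counts of the pair in the synaptosome library and 48.5% in the homogenate library, or 89.8% and 75.9% of their TPM.

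The eIF2 subunits, which form one complex, had different ratios, from -1.55 to 0.47 on the log2 scale. Eif2s1, the α subunit on which the stress kinases act, had 23.7 scaled CPM in the synaptosome library and 46.1 in the homogenate library, 1.94-fold lower (1.69 to 2.23), just short of the rule. Eif2s2, the β subunit, was at -0.28. The γ subunit is encoded by an X-linked and a Y-linked gene, and these differed in sign. Eif2s3x had 126 scaled CPM in the synaptosome library and 90.8 in the homogenate library, a log2 ratio of 0.47 (0.37 to 0.57), while Eif2s3y had 16.2 and 47.3, 2.92-fold lower (2.49 to 3.44). The Y-linked gene held 11.4% (9.89 to 13.0) of the pair's counts in the synaptosome library and 34.2% (32.4 to 36.1) in the homogenate library. Per length, as shares of TPM, these were 21.1% in the synaptosome library and 52.0% in the homogenate library, so the direction was the same but Eif2s3y was the larger of the pair in the homogenate. Other Y-linked genes, chosen for this check after the values were seen, were at -0.16 (Ddx3y, a helicase), -0.67 (Uty) and -0.66 (Kdm5d, both histone demethylase family genes). Their X-linked partners were at -0.51 (Ddx3x), -0.69 (Kdm6a) and 0.22 (Kdm5c). The other Y-linked genes were thus also below 0, though the interval of Ddx3y held 0 (-0.35 to 0.034), and none was as far below as Eif2s3y. Of the windows of Eif2s3x, 35.3% also occur in a processed pseudogene. Summed over the 4 genes, the eIF2 complex had a log2 ratio of -0.19 (-0.26 to -0.12).

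eIF2B, the exchange factor that recycles eIF2 and is mutated in vanishing white matter disease, had 4 of 5 subunits below 0. In 3 of the 4 the interval lay wholly below 0, and 7179 of all 14153 genes kept were below 0. Eif2b5, the catalytic ε subunit, was the exception at 0.35 (0.22 to 0.49), with 70.3 scaled CPM in the synaptosome library and 55.1 in the homogenate library. Eif2b3, the γ subunit, was lowest at -0.74. The kinases that phosphorylate the α subunit of eIF2 were split. Eif2ak2, which senses double-stranded RNA, was at 0.58, and Eif2ak3, the kinase of endoplasmic reticulum stress, at 0.42. Eif2ak1, the haem-regulated kinase and the most abundant of them per length, was at -0.093 with an interval that held 0, and Eif2ak4, which senses amino acid lack, at -0.50. Eif2a and Eif2d, which can deliver tRNA to the ribosome without eIF2, both had intervals that held 0.

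eIF3, the largest initiation complex, had no member of 13 past the 2-fold rule, where 12.8% of all genes kept were higher and 9.10% lower. Of the 13 members, 8 were above 0, and of all 14153 genes kept, 6974 were. The eIF3 sum was at a log2 ratio of 0.31 (0.28 to 0.34). Under scaling to library totals the sum was at -0.18, so its sign depends on the scaling. Eif3h and Eif3f, which form a dimer in the complex, stood apart from the other subunits. Eif3h had 191 scaled CPM in the synaptosome library and 99.1 in the homogenate library, 1.92-fold (1.81 to 2.05). Eif3f had 196 scaled CPM in the synaptosome library and 106 in the homogenate library, 1.84-fold (1.73 to 1.96). The next subunits were Eif3k at 0.52 and Eif3i at 0.45 on the log2 scale, and the lowest was Eif3m at -0.28. Eif3a, the largest subunit and the core of the scaffold, was at 0.27, Eif3b at 0.21 and Eif3c at 0.030. Without Eif3h and Eif3f the sum was at 0.14. Of Eif3h windows, 11.8% also occur in a processed pseudogene. Per length, the subunits spanned 45.8 TPM for Eif3j to 327 TPM for Eif3h in the synaptosome library, and 54.9 TPM for Eif3j to 278 TPM for Eif3k in the homogenate library.

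Eif3j, a loosely bound subunit, is an uncertain member. Its exons lie wholly within those of Gm9781, a predicted gene that had 110 counts in the synaptosome library and 0 in the homogenate library. The log2 ratio of Eif3j was 0.28 alone and 0.51 with the counts of both genes summed. By the authors' deposited signal it was -0.016 (-0.17 to 0.14), so its sign depends on the measure.

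The eIF4 group as a whole was near the typical gene, at -0.085 (-0.11 to -0.065), but its parts lay on different sides. The RNA helicases eIF4A, which unwind the mRNA leader, were below 0 in 3 of 3 genes, where 7179 of all 14153 genes kept were. The sum of the helicases was at -0.58 (-0.63 to -0.54). Eif4a2, the most abundant of them per length in both libraries, had 339 scaled CPM in the synaptosome library and 567 in the homogenate library, 1.68-fold lower (1.61 to 1.74). Eif4a1 was at -0.36, and Eif4a3, the form that sits in the exon junction complex, at -0.35. Of Eif4a1 windows, 60.8% also occur in a pseudogene. Eif4b and Eif4h, which stimulate the helicase, were at 0.17 and 0.042.

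The cap-binding proteins were also below 0 in 3 of 3 genes kept, where 7179 of all 14153 genes kept were. Eif4e, the main cap-binding protein, had 78.8 scaled CPM in the synaptosome library and 103 in the homogenate library, a log2 ratio of -0.38 (-0.50 to -0.26). Eif4e2, a form associated with repression, was at -0.28 and Eif4e3 at -0.60.

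The eIF4E-binding proteins, which hold eIF4E away from eIF4G until mTOR phosphorylates them, gave both the highest and one of the lowest ratios of all members. Eif4ebp2, the main form of the brain, had 31.8 scaled CPM in the synaptosome library and 11.5 in the homogenate library, from 368 and 207 counts, and was 2.78-fold higher (2.33 to 3.31). Eif4ebp1 was 2.07-fold higher, but from 41 counts in the synaptosome library and 31 in the homogenate library, and its interval ran from 1.26 to 3.41. Eif4ebp3 was 2.87-fold lower (2.09 to 4.01), from 48 counts in the synaptosome library and 215 in the homogenate library. Of its windows, 62.8% also occur in transcripts of another coding gene, so its counts are uncertain. Eif4enif1, which carries eIF4E into the nucleus and into cytoplasmic granules, was at -0.47.

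The eIF4G scaffolds, which join the cap-binding protein to eIF3, were spread over more than a log2 unit. Eif4g2, which lacks the eIF4E-binding region and serves cap-independent initiation, was the most abundant per length and had 880 scaled CPM in the synaptosome library and 620 in the homogenate library, a log2 ratio of 0.51 (0.47 to 0.54). Eif4g1, the main scaffold, had 261 scaled CPM in the synaptosome library and 260 in the homogenate library. Eif4g3 had 206 scaled CPM in the synaptosome library and 312 in the homogenate library, 1.51-fold lower (1.44 to 1.59).

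The factors of subunit joining and their relatives lay close to 0. Eif5, which triggers GTP hydrolysis on eIF2, was at 0.29, Eif5b, which joins the subunits, at -0.12, and Eif6, which keeps the subunits apart, at 0.24. Eif5a, the hypusine-bearing factor that eases the making of difficult peptide bonds, was at 0.11 and its relative Eif5a2 at -0.31. Argonautes, the microRNA-binding proteins that these files list under the older symbols Eif2c1 to Eif2c4, are not translation factors. Eif2c2, the cleaving Argonaute, was at 0.87 (0.69 to 1.05), Eif2c1 at 0.16, Eif2c3 at -0.39 and Eif2c4 at -0.52.

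Shares within pairs of related genes do not depend on scaling between libraries. Eef1a2 held 11.8% (11.6 to 12.1) of the eEF1A counts in the synaptosome library and 25.8% (25.4 to 26.2) in the homogenate library. The share of Eif4a2 in the Eif4a2 and Eif4a1 pair was 59.3% in the synaptosome library and 65.5% in the homogenate library. Eif4g3 made up 44.1% of Eif4g3 and Eif4g1 in the synaptosome library and 54.5% in the homogenate library. Eif5a2 made up 14.6% of its pair with Eif5a in the synaptosome library and 18.6% in the homogenate library. Per length (TPM) it made up 3.92% and 5.14%. In these 4 pairs the intervals of the libraries did not overlap. The gene named first, an order of listing only, held the smaller share in the synaptosome library. Eif2s3y against Eif2s3x (11.4% and 34.2%) also had no overlap, nor had Eif1ax against Eif1a in the other direction (72.5% and 48.5%). The intervals cover counting error only, and how often pairs of other genes differ this far was not tested. The intervals overlapped for Eif4e2 against Eif4e (39.8% in the synaptosome library and 38.0% in the homogenate library), Eif1b against Eif1 (19.6% and 19.0%), Eif4ebp1 against Eif4ebp2 (10.0% and 13.0%, or 17.5% and 22.2% of TPM) and Eif4h against Eif4b (58.5% and 60.7%).

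**Figure D3:**
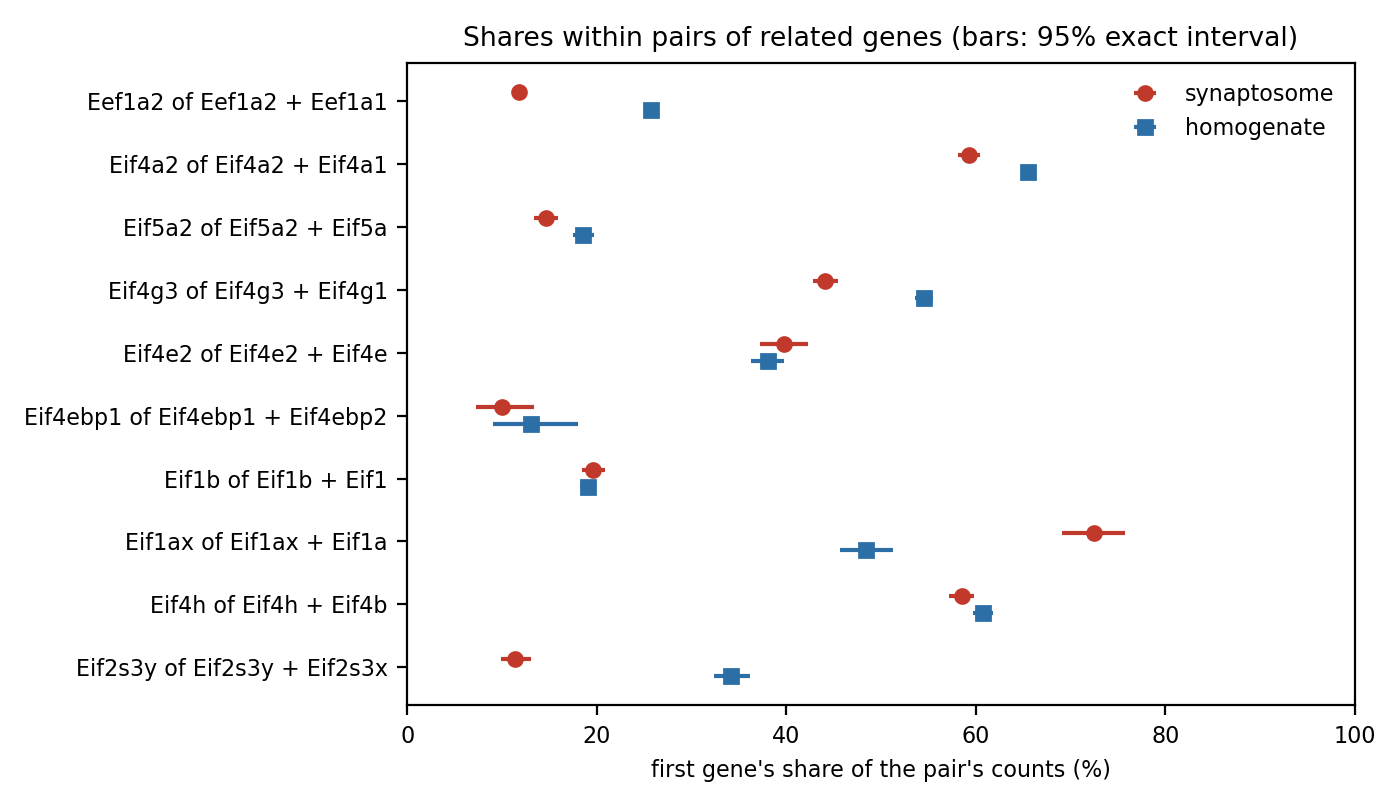
Share of a pair's counts (percent) held by its first gene in the synaptosome library (circles) and the homogenate library (squares), with 95% exact intervals. Eef1a2 lies at 11.8% against 25.8% and Eif2s3y at 11.4% against 34.2%, while Eif1ax lies on the other side at 72.5% against 48.5%.

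The files also divide a gene's counts among its transcripts, and for several members the division differed between libraries. These are estimates among transcripts that share most of their bases, so intervals of counts understate their error. Eef1d has a long form with an exon of its own of 1130 coding bases (chr15:75902679-75903808, mm10). This form held 18.7% (16.5 to 21.1) of the Eef1d counts in the synaptosome library and 37.8% (34.7 to 41.1) in the homogenate library, or 11.9% and 26.2% of the gene's TPM. An Eif4a2 form with 816 bases of its own, nearly all in the untranslated region, held 3.50% in the synaptosome library and 10.6% in the homogenate library. Eif5 had a shorter form with 0 of 3188 counts in the synaptosome library, which by a floor of 3 counts allows a share of up to 0.0941%, and 16.7% of the counts in the homogenate library. An Eif4enif1 form had 0 of 515 counts in the synaptosome library, which by the same floor allows up to 0.583%. It held 21.6% in the homogenate library. This Eif4enif1 form has 215 bases of its own, and the Eif5 form has 0. An estimate of 0 can come from the division of shared reads, which was not tested. The Eif2ak4 form with 5213 bases held 39.0% in the synaptosome library and 21.3% in the homogenate library. The form of Eef2k with the longer 3′ untranslated region held 56.7% in the synaptosome library and 66.3% in the homogenate library, or 38.5% and 48.5% of the gene's TPM.

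The eIF4G scaffolds differ by short coding stretches, which are shown in capitals with 15 transcript bases on each side because they are the bases that no other form of the gene in these files holds. They were read from GENCODE transcripts on mm10.
Eif4g3, 33 bases, chr4:138087533-138087565, plus strand: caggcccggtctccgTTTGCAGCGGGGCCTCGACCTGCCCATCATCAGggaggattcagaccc
Eif4g3, 57 bases, chr4:138180490-138180546, plus strand: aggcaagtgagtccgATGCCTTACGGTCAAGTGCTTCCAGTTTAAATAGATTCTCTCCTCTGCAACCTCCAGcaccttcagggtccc
Eif4g1, 21 bases, chr16:20674786-20674806, plus strand: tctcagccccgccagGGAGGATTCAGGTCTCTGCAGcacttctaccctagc
The Eif4g3 form with the 33-base stretch held 31.4% (29.5 to 33.3) of the gene's counts in the synaptosome library and 51.0% (49.7 to 52.3) in the homogenate library. The form with the 57-base stretch held 9.52% in the synaptosome library and 5.61% in the homogenate library, and the remaining form, with no such bases, held 59.1% and 43.4%. The Eif4g1 form with the 21-base exon held 30.8% in the synaptosome library and 34.3% in the homogenate library, a smaller difference than that between the Eif4g3 forms.

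**Figure D4:**
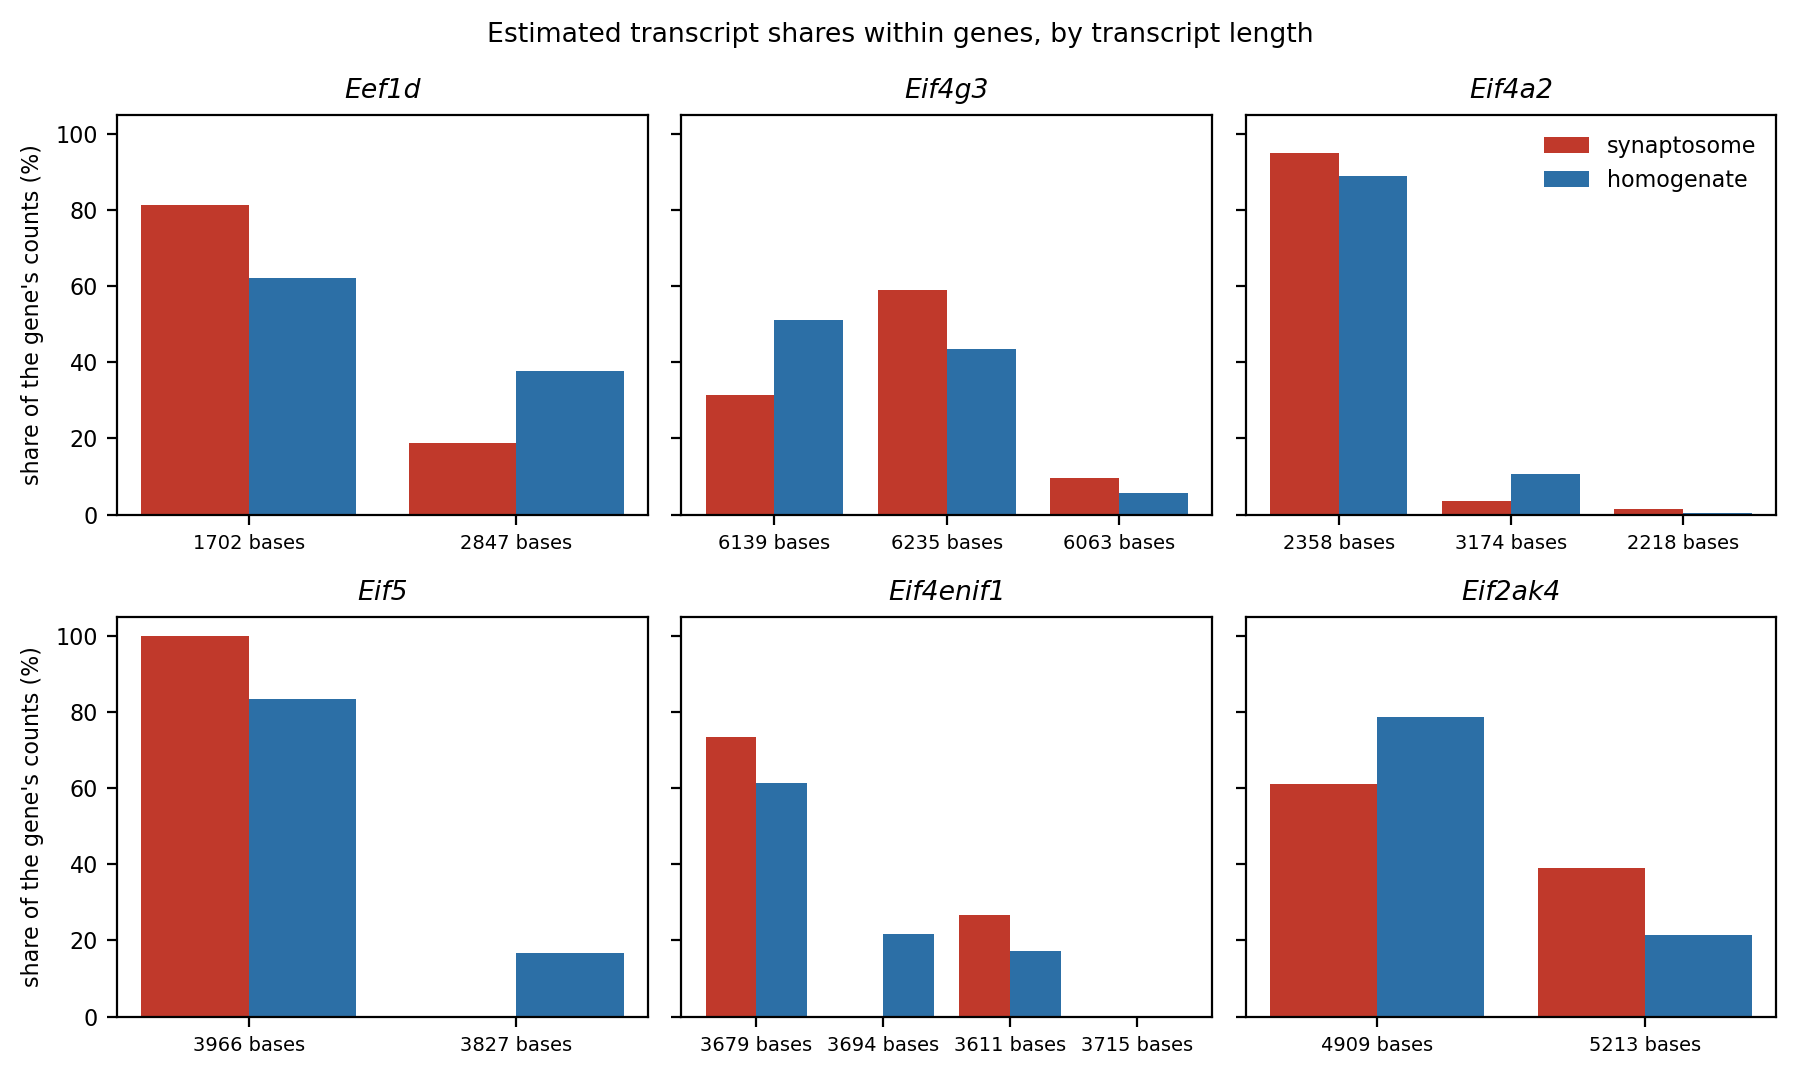
Share of a gene's counts (percent) assigned to each transcript, named by its length in bases, in the synaptosome library (left bars) and the homogenate library (right bars). The 2847-base Eef1d form and the 6139-base Eif4g3 form take smaller shares in the synaptosome library, and the 3827-base Eif5 form has 0 counts there.

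Ratios went with level in these libraries. Spearman's rho between the log2 ratio and the mean CPM was 0.35 over the 65 members and 0.24 over 14145 genes, as a description across genes that share the same 2 libraries. Set against genes of like level, the members were not high. From 100 to 300 CPM, 14 members had a median log2 ratio of 0.14, and 1711 genes had 0.33. At 300 CPM and above, 7 members had a median of 0.51, and 547 genes had 0.88, with 45.7% of those genes called higher. Among the 7, Eef1a1 and Eef2 lay above that median, and Eef1a2, Eif1 and Eif4a2 lay below 0. In the range from 10 to 30 CPM, 15 members had a median of -0.39 and 3729 genes had -0.11.

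**Figure D5:**
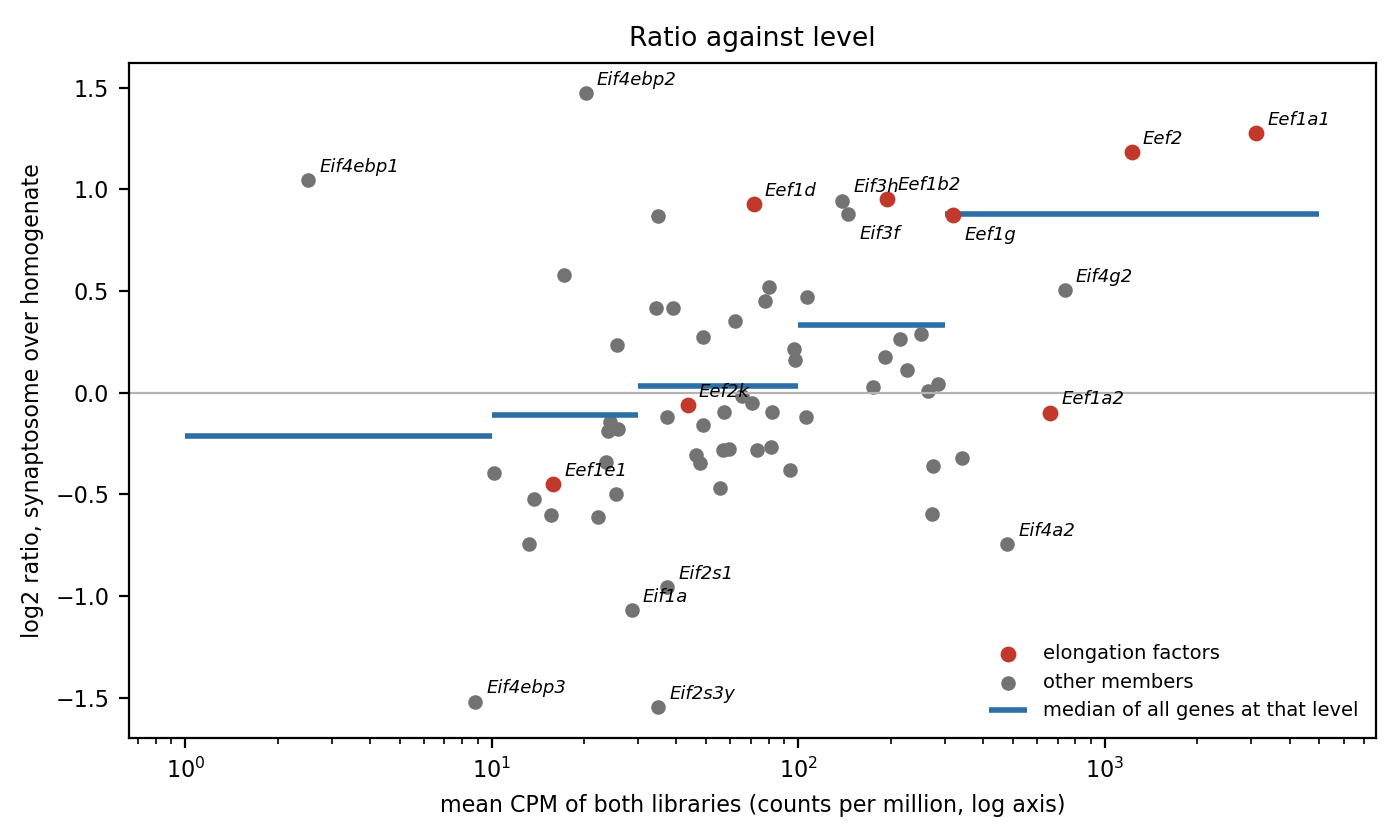
Log2 ratio, synaptosome over homogenate, of each member against its mean CPM (log axis), with elongation factors picked out and the median of all genes at each level as bars. Eef1a1 and Eef2 lie above the bar of 0.88 for the most abundant genes, and Eef1a2, Eif4a2 and Eif1, the last not named in the plot, lie below 0 at that level.

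Other genes of the translation pathway were rarely called higher, and their share called lower was near that of all genes. Of 43 genes on 5 lists, 1 was called higher (2.33%), against 12.8% of all genes, and 5 lower (11.6%), against 9.10% of all genes. The one higher was Tpt1, an abundant growth-related protein that binds eEF1A, at 1108 scaled CPM in the synaptosome library and 440 in the homogenate library, 2.52-fold. Pabpc1, the cytoplasmic poly(A)-binding protein, was at a log2 ratio of 0.83, while Pabpn1, its nuclear counterpart, was 2.41-fold lower. Of 6 termination and recycling genes, Gspt2, a form of the release factor eRF3, was 2.68-fold lower and Mcts1, a recycling factor, 2.41-fold lower. The mitochondrial factor Mtif2, which starts translation in mitochondria, was 2.26-fold lower, as 1 of 9 on its list, and Pelo, a rescue factor for stalled ribosomes, was 2.40-fold lower. Of 15 signalling genes, Mtor was at 0.11.

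The machinery around the factors lay on both sides of them. Of 81 cytosolic ribosomal protein genes, 59 were called higher and 2 lower, where the background is 12.8% higher and 9.10% lower, with a summed ratio of 2.46-fold, set beside 2.05-fold for the elongation factors and 1.00-fold for the initiation factors. The 20 cytosolic tRNA synthetases, a list added after the values were seen, gave 0 higher and 1 lower, both below the shares over all genes, with a median of -0.50. No test of these differences was possible with 1 library of each kind.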

How the data were processed

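Each library was made with a stranded mRNA kit and read as 100-base reads, per the labels. The submitters' processing notes name FastQC, TopHat 1.3.3, RSEM 1.2.5, edgeR 3.0.6 and mm10, with no roles. The authors deposited expected counts and TPM (scaled to one sum per library) for each transcript, and a signal per gene in a table of both libraries. That deposited signal equalled the summed expected count times 1.25 in the synaptosome library and 0.798 in the homogenate library within 1% for 64 of 65 members, all but Eif3j. Deposited FPKM were not used.

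Expected counts were summed per gene symbol and rounded. Scaling was by TMM (edgeR 4.0.16, R 4.3.3; factors 0.843 for synaptosome, 1.19 for homogenate) and genes averaging 1 CPM or more were kept. Intervals are 95% Clopper-Pearson. PCR copies are not independent molecules, so they cover counting error only. Calculations in Python 3.11.15 were tested on simulated counts. TPM served to compare levels between genes. Alternatives were library totals, DESeq2 1.42.0 size factors, TPM, the deposited signal, other CPM minimums and a 1.5-fold rule. Gene and exon coordinates were taken from the transcript files (mm10). Every member kept could be named, with the 2 most abundant, the extremes of each role, every called gene and every pair given in full. The members and lists were chosen with earlier results of these data known. The motif rules, the printed sequences, the Y-linked and synthetase lists and the copy search (100-base windows against GENCODE transcripts) were chosen after the values were seen.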

Additional observations from a re-analysis of the deposited data

How the results depend on the processing

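Under DESeq2 size factors and the deposited signal, the same 4 members were higher and the same 3 lower, and 64 of 65 kept their sign. Library totals and TPM moved the median of all genes to -0.51 and -0.55. Under them the members' median was -0.59 and -0.63, 0 and 0 members were higher, and 10 and 12 were lower, against 25.6% and 27.6% of all genes lower. The eIF2 sum was then -0.68 and -0.88, eIF3 -0.18 and -0.16 (sign changed), eIF4 -0.58 and -0.76, and the elongation factors 0.54 and 0.51. With DESeq2 size factors, eIF4 was -0.058 and the elongation factors 1.06. The 1.5-fold rule gave 10 higher and 9 lower members, against 24.0% and 20.9% of all genes. Leaving out genes, chosen after seeing the data, gave 0.75 for the elongation factors without Eef1a1, 0.35 without Eef1a1 and Eef2, and 0.14 for eIF3 without Eif3f and Eif3h. Eif3j summed with Gm9781 gave 0.51. Other CPM minimums left the called counts within 1.5 times. A median was taken as moved past a shift of 0.05. TPM moved pair shares by up to 27.5 percentage points and transcript shares by up to 18.2. Members under 50 counts, such as Eif4ebp1, are limited by depth. No paired analysis was possible because there was 1 library of each kind.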
